A study of Homo sapiens with 15 samples.

Results

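The genes described here encode chains of the laminins: 5 α chains (LAMA1 to LAMA5), 3 β chains (LAMB1 to LAMB3) and the γ1 chain (LAMC1). They were taken from the table of raw counts by the Entrez gene number of each symbol, and all 9 were found among the 28395 genes listed and passed the filter on low counts, which left 16740 genes. Other laminin chain genes were not analysed here. BEAS-2B, an established human line derived from bronchial epithelium and grown in DMEM with serum, received polyethylene terephthalate nanoplastics (PET-NPLs) at 50 µg/mL or was passaged in parallel without particles, and total RNA was sequenced at 24 h, at 15 weeks and at 30 weeks. Each arm had 2 samples at 24 h and 2 at 15 weeks, and at 30 weeks there were 3 controls and 4 exposed samples. All of them belong to 1 line and share its medium, and nothing in the labels says that the replicates came from separate cultures, so p-values measure the spread between these samples only.

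Laminins are secreted as cross-shaped trimers of 1 α, 1 β and 1 γ chain and form, with type IV collagen, nidogen and perlecan, the sheet of matrix on which epithelia rest. The chains are named in the trimer's number, so that laminin-111 is α1β1γ1 and laminin-521 is α5β2γ1. The β and γ chains pair inside the cell and the α chain is needed for secretion, while the end of the α chain carries most of the sites to which integrins and dystroglycan bind. In the airway the basal epithelial cells rest on laminin-332, which holds the α3 and β3 chains, and on laminin-511. Laminin-211 is the main form around skeletal muscle fibres, and laminin-411 is found around endothelium.

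The labels place the samples of 24 h and 15 weeks in batch 1 and those of 30 weeks in batch 2. Each comparison of exposed with control cells therefore lies within 1 batch, while the step from 15 to 30 weeks and the batch cannot be told apart. The samples held from 23143202 to 31459990 counts on genes. Of the 30-week libraries, exposed replicate 2 stood apart, with Pearson correlations of log2 CPM across genes of 0.976 to 0.981 with the other exposed samples against 0.991 among these. Control replicate 1 had 31.0% of its counts on 6 small noncoding RNAs, against 22.3% and 26.8% in the other controls and 17.0% to 21.5% in the exposed samples. Levels are given as CPM, the counts of a gene relative to the size of its library after TMM scaling, and fold changes with the standard error of the fit (SE).

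Of the epithelial markers, the keratins KRT8 and KRT18 of simple epithelia were abundant at 30 weeks, while E-cadherin, EPCAM and the basal cell genes were below 1 CPM. Controls had 0.620 ± 0.213 CPM (SD, n = 3) of E-cadherin (CDH1) and exposed cells 0.565 ± 0.0101 (SD, n = 4), EPCAM was at 0.175 and 0.151 CPM on average, and the basal cell genes KRT5, KRT14 and TP63 did not pass the filter on low counts. Of 10 epithelial markers 7 could be tested, and the keratins KRT8, KRT18 and KRT19 were called higher in exposed cells, while the other 4 did not pass the test (edgeR; 23.7% of all genes were called at 30 weeks, 12% higher). The log2 fold changes of the 7 ran both ways, 4 above and 3 below 0, from -0.65 to 2.04 with a median of 0.0065. The summed level of the 10 markers ran from 314 to 412 CPM in the 30-week controls and from 880 to 1097 CPM in exposed cells, with KRT8 the most abundant in the exposed cells at 616 ± 70.4 CPM (SD, n = 4).

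To show the sequence from which 3 of the 4 genes that differed at 30 weeks are transcribed, the 250 bases upstream of their annotated start are printed. The sequences are those of RefSeq on GRCh38.p14, where 8 of the 9 genes had an entry; LAMA1 had none. Capitals mark the GC box (GGGCGG), the AP-1 site (TGANTCA) and the E-box (CANNTG), each searched on both strands together with the TATA box (TATAAA) and CCAAT, of which no match was found in these 3 windows. The window of LAMA3 lies at an internal start, that of its shorter transcripts, and is chr18:23872770-23873019 on the plus strand.
LAMA3: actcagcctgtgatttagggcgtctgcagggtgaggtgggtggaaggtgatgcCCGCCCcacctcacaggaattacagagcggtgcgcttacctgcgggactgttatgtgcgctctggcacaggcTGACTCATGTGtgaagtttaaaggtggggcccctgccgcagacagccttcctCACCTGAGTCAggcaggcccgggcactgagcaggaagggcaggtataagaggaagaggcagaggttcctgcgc
The window of LAMB1 is chr7:108003162-108003411 on the minus strand.
LAMB1: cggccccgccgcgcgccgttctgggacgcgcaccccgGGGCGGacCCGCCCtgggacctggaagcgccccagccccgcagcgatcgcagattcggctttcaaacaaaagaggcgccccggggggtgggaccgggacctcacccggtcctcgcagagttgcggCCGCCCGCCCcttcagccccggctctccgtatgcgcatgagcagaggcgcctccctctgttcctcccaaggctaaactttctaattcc
The window of LAMC1 is chr1:183023170-183023419 on the plus strand.
LAMC1: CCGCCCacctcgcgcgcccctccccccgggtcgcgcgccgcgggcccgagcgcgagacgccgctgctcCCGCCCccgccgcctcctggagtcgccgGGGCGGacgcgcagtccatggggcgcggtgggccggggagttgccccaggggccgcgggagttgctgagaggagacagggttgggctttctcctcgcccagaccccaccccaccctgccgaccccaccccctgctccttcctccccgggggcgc

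The LAMA3 window held 2 matches to the AP-1 site, 125 and 69 bases before the start, each overlapping an E-box, and 1 GC box. At least 1 AP-1 match was present in 6.57% of the 35116 upstream windows of the same length, and LAMA3 was the only gene of the 8 with one. The LAMB1 and LAMC1 windows held 4 and 3 GC boxes and no E-box, where 42.64% of all windows held a GC box and 61.82% an E-box. Their GC content was 70.4% and 79.6%, against 60.4% in LAMA3 and a median of 58% over all windows. A match is a description of these letters and does not show that a factor binds there.

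Of the 9 laminin chain genes 4 had higher transcript levels in exposed than in control cells at 30 weeks. LAMA3, LAMA1, LAMC1 and LAMB1 were 2.61-, 2.16-, 1.77- and 1.59-fold higher in exposed than in control cells (edgeR's quasi-likelihood test, Benjamini-Hochberg adjusted p of at most 0.00101), and for each of them every exposed sample lay above every control. No laminin gene was lower at this threshold. Over all genes tested 23.7% differed at 30 weeks and 12% were higher in exposed cells, and 27.3% of genes had groups that did not overlap. The median log2 fold change of the 9 genes was 0.61, against 0.0078 over all genes. From 15 to 30 weeks LAMA3, LAMB1 and LAMC1 fell in controls, with log2 fold changes of -1.66, -1.34 and -0.89. In exposed cells these genes were at -0.20, -0.71 and -0.059. LAMA1 rose by 1.08 in exposed cells and was at -0.26 in controls. The steps in time cross the batches. In RNA from a whole culture, fewer cells that express a gene and less of its RNA per cell cannot be told apart.

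**Figure D1:**
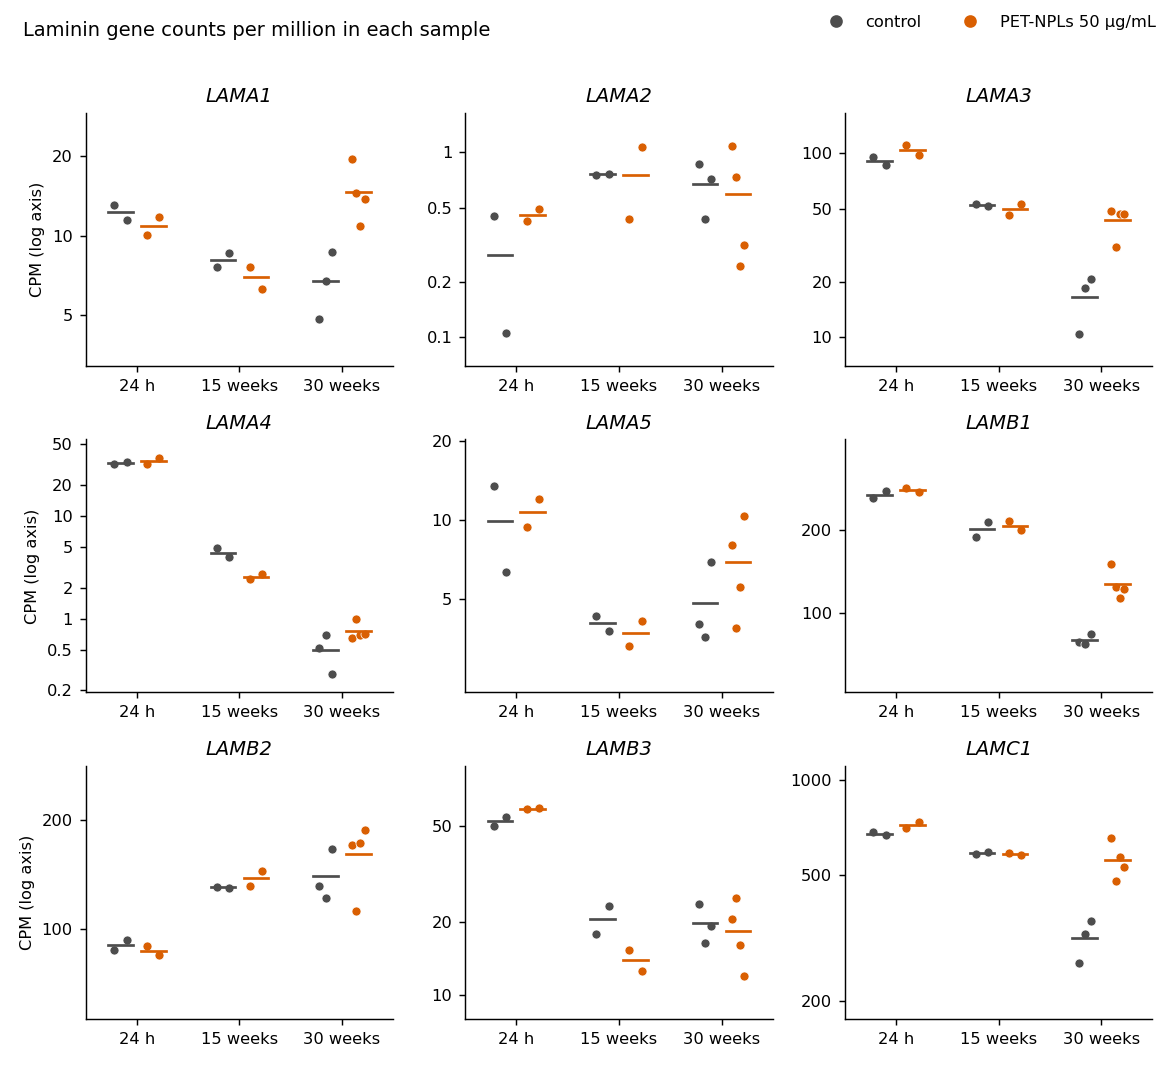
CPM of each laminin gene (log axis) in every sample at 24 h, 15 weeks and 30 weeks, controls in grey and exposed cells in orange; horizontal lines are group means. The exposed 30-week samples of LAMA1, LAMA3, LAMB1 and LAMC1 lie above all 3 controls, and LAMA4 falls with time in both arms.

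LAMC1 (Entrez gene 3915, chromosome 1, 183023420 to 183145592, plus strand; here and for the other genes on GRCh38) encodes γ1, the γ chain of most laminins. Its 24 h controls were at 682 and 669 CPM and the exposed samples at 702 and 736 CPM. At 15 weeks it was at 582 and 589 CPM in controls and at 586 and 579 CPM in exposed cells, with overlapping arms. At 30 weeks the controls were at 263, 327 and 359 CPM and the exposed samples at 655, 480.3, 572 and 529 CPM. The 30-week controls were thus the low samples of the series, and the exposed samples stayed near the 15-week level. The log2 fold change at 30 weeks was 0.82 (SE 0.134, adjusted p = 0.000318, edgeR), and it was 0.091 at 24 h and -0.0082 at 15 weeks.

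LAMB1 (Entrez gene 3912, chromosome 7, 107923799 to 108003161, minus strand) encodes β1, the partner of γ1 in laminin-111, laminin-211, laminin-411 and laminin-511. At 24 h it was at 261 and 277 CPM in controls and at 284 and 276 CPM in exposed cells. At 15 weeks it was at 189 and 214 CPM in controls and at 216 and 199 CPM in exposed cells. By 30 weeks the controls were at 78.4, 77.0 and 83.8 CPM and the exposed samples at 150.4, 124, 113 and 122 CPM. Both arms were lower at 30 weeks than before, the controls more so, and the 2 arms did not overlap. The log2 fold change at 30 weeks was 0.67 (SE 0.116, adjusted p = 0.000519, edgeR).

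LAMB2 (Entrez gene 3913, chromosome 3, 49121114 to 49133050, minus strand) encodes β2, which takes the place of β1 in laminin-121, laminin-221, laminin-421 and laminin-521 and is known from the neuromuscular junction and the kidney filter. At 24 h it was at 87.7 and 93.5 CPM in controls and at 89.8 and 85.0 CPM in exposed cells, and at 15 weeks at 131 and 130.4 CPM in controls and 132 and 145 CPM in exposed cells. The 30-week controls were at 132, 122 and 167 CPM and the exposed samples at 171, 113, 173 and 188 CPM. The arms overlapped at 30 weeks because exposed replicate 2 was the lowest of the 7 samples. The log2 fold change was 0.20 (SE 0.156, adjusted p = 0.391, edgeR); without exposed replicate 2 it was 0.34 with an adjusted p of 0.0268.

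LAMB3 (Entrez gene 3914, chromosome 1, 209614870 to 209652425, minus strand) encodes β3, which is found in laminin-332 alone. The gene stood at 50.1 and 54.8 CPM in the 24 h controls and at 58.8 and 59.3 CPM in exposed cells, and at 15 weeks at 17.8 and 23.4 CPM in controls and 15.3 and 12.6 CPM in exposed cells. The 30-week controls were at 23.9, 16.4 and 19.4 CPM and the exposed samples at 20.6, 25.2, 16.1 and 11.9 CPM. The 30-week arms overlapped over most of their range, with a log2 fold change of -0.11 (SE 0.204, adjusted p = 0.758, edgeR). LAMB3 thus did not pass the threshold that LAMA3, whose chain joins it in laminin-332, passed; the difference between the 2 genes was not tested. The sign of this small value turned in 3 of 27 alternatives.

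LAMA3 (Entrez gene 3909, chromosome 18, 23689453 to 23955066, plus strand) encodes α3, the α chain of laminin-332, laminin-311 and laminin-321. At 24 h it was at 95.3 and 86.5 CPM in controls and at 110.5 and 97.8 CPM in exposed cells, and at 15 weeks at 52.9 and 51.6 CPM in controls and 46.4 and 53.0 CPM in exposed cells. At 30 weeks the controls were at 10.4, 18.5 and 20.6 CPM and the exposed samples at 48.5, 31.0, 46.5 and 46.6 CPM. The exposed samples other than replicate 2 were close to each other and to the 15-week samples. The log2 fold change of 1.38 (SE 0.200, adjusted p = 0.000106, edgeR) was the largest of the 9 genes at 30 weeks.

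LAMA1 (Entrez gene 284217, chromosome 18, 6941742 to 7117797, minus strand) encodes α1, the chain of laminin-111, best known from the early embryo. At 24 h it was at 13.1 and 11.5 CPM in controls and at 10.1 and 11.8 CPM in exposed cells, and at 15 weeks at 7.64 and 8.58 CPM in controls and 7.63 and 6.26 CPM in exposed cells. By 30 weeks the controls were at 4.82, 6.75 and 8.70 CPM and the exposed samples at 19.4, 14.5, 10.9 and 13.8 CPM. Here 3 of the 4 exposed samples at 30 weeks lay above every earlier sample as well. The log2 fold change was 1.11 (SE 0.208, adjusted p = 0.00101, edgeR).

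LAMA5 (Entrez gene 3911, chromosome 20, 62309065 to 62367312, minus strand) encodes α5, the broadly used α chain of adult epithelia. It was at 13.5 and 6.33 CPM in the 24 h controls and at 4.33 and 3.78 CPM in the 15-week controls. Exposed cells had 9.44 and 12.01 CPM at 24 h and 3.32 and 4.15 CPM at 15 weeks, within or near the range of the controls. Among the 30-week samples the controls were at 4.04, 3.61 and 6.91 CPM and the exposed samples at 8.04, 3.89, 5.56 and 10.4 CPM. These 30-week arms overlapped, and the log2 fold change of 0.52 (SE 0.323) was not significant (adjusted p = 0.274, edgeR).

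LAMA4 (Entrez gene 3910, chromosome 6, 112107931 to 112254985, minus strand) encodes α4, a short α chain of endothelial and mesenchymal matrix. In the 24 h samples it was at 32.1 and 33.6 CPM in controls and at 32.2 and 37.1 CPM in exposed cells, and at 15 weeks at 4.86 and 3.95 CPM in controls and 2.42 and 2.73 CPM in exposed cells. In the 30-week samples the controls held 8 to 19 counts and the exposed samples 18 to 28 counts, at 0.516, 0.686 and 0.286 CPM against 0.652, 0.981, 0.695 and 0.704 CPM. The 30-week arms overlapped, since control replicate 2 lay above exposed replicate 1, and the log2 fold change of 0.61 (SE 0.273) was not significant (adjusted p = 0.119, edgeR). Without control replicate 2 it was 0.94 with an adjusted p of 0.0398.

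LAMA2 (Entrez gene 3908, chromosome 6, 128883138 to 129516566, plus strand) encodes α2, the α chain of muscle laminin, whose loss causes a congenital muscular dystrophy. It was low in every condition, between 0.105 and 1.09 CPM. Its 30-week controls were at 0.860, 0.433 and 0.716 CPM and the exposed samples at 1.09, 0.736, 0.243 and 0.317 CPM, with a log2 fold change of -0.16 (SE 0.522, adjusted p = 0.862, edgeR). The arms overlapped.

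The 4 calls at 30 weeks did not rest on either library that stood apart. Without exposed replicate 2 the log2 fold changes were 1.51 for LAMA3, 1.12 for LAMA1, 0.89 for LAMC1 and 0.69 for LAMB1, and without control replicate 1 they were 1.15, 0.93, 0.71 and 0.67, all with an adjusted p of at most 0.00826 (edgeR). All 4 genes were also called by DESeq2 and by limma-voom. With 2 surrogate variables in limma-voom LAMA5 and LAMB2 were called as well.

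**Figure D2:**
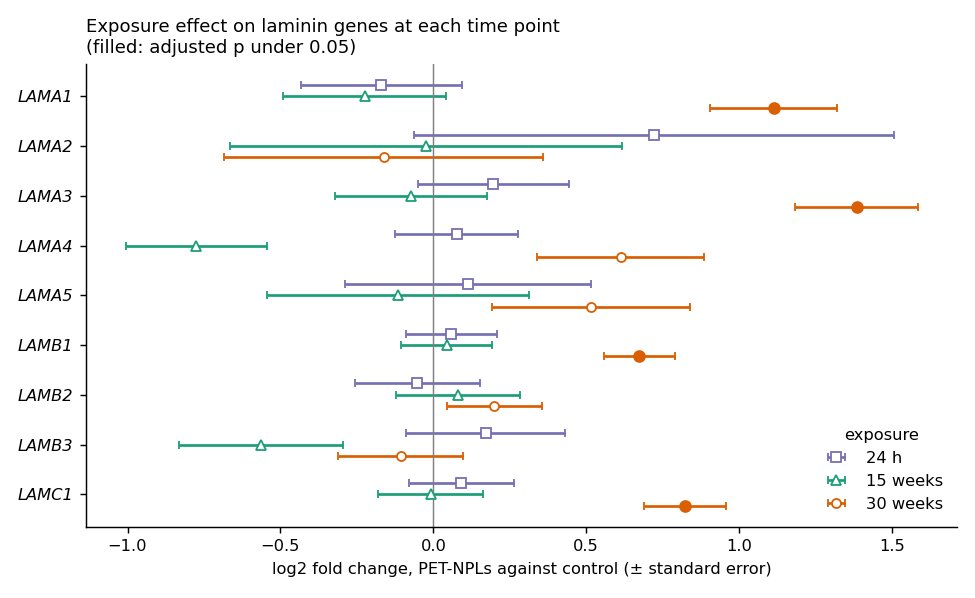
Log2 fold change of exposed against control cells for each laminin gene at 24 h, 15 weeks and 30 weeks; bars are 1 standard error (SE) of the fit and filled symbols have an adjusted p under 0.05. The filled symbols are LAMA1, LAMA3, LAMB1 and LAMC1 at 30 weeks.

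At 24 h 0 of the 9 genes and 0% of all genes differed between exposed and control cells (edgeR, adjusted p under 0.05). No laminin gene had an unadjusted p under 0.05 there, and DESeq2 and limma-voom called 0 as well. The log2 fold changes ran from -0.17 for LAMA1 to 0.72 for LAMA2. The arms did not overlap at 24 h for 3 of the 9 genes (LAMA3, LAMB3 and LAMC1), against 26% of all genes. At 15 weeks the counts called were again 0 of 9 and 0% of all genes, with 0 by DESeq2 and limma-voom, and 1 laminin gene had an unadjusted p under 0.05. This was LAMA4, at a log2 fold change of -0.78 (SE 0.230, adjusted p = 0.666, edgeR), whose 2 exposed samples lay below both controls. LAMB3 was at -0.56 (SE 0.268, adjusted p = 1, edgeR), also without overlap, and was called when the 15-week samples were fitted alone. Of the 9 genes 4 did not overlap between the arms at 15 weeks, against 45.3% of all genes. The fit shares its estimate of the spread over all 15 samples. Replicates correlated at 0.988 to 0.991 at 24 h and 15 weeks and at 0.976 to 0.991 at 30 weeks (Pearson's r of log2 CPM). With 2 samples an arm, 0 calls at 24 h and 15 weeks do not show that the laminin genes were unchanged.

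The exposure effect at 30 weeks was then compared with that at 15 weeks in the same fit. It was larger at 30 weeks for LAMA3, by 1.46 on the log2 scale (SE 0.318, adjusted p = 0.0122), LAMA4, by 1.39 (SE 0.357, adjusted p = 0.0351), LAMA1, by 1.34 (SE 0.337, adjusted p = 0.0309), and LAMC1, by 0.83 (SE 0.217, adjusted p = 0.0384, edgeR). Among all genes 4.74% had such a difference. The 2 effects lie in different batches, so a growth of the effect with time and a difference between the batches cannot be told apart. For LAMB1 the difference was 0.63 (SE 0.188) and was not significant (adjusted p = 0.0751, edgeR). LAMA4 entered this list through its lower level in exposed cells at 15 weeks together with its higher mean at 30 weeks, neither of which passed the test alone. LAMA4 was not called by limma-voom, without or with surrogate variables, and lost its call in 12 of 27 alternatives. LAMC1 lost its call in more of them, 16 of 27, LAMA1 in 9 and LAMA3 in 4. These 4 calls varied with single libraries, and 1 (LAMA3) was left without control replicate 1 of 30 weeks. Without control replicate 2 or exposed replicate 3 of 30 weeks 2 were left. Leaving out a sample of 24 h or 15 weeks leaves 1 in its group, and some or all of the calls were then lost. Over the 27 alternatives the differences ran from 1.22 to 1.65 for LAMA3, 1.10 to 1.72 for LAMA4, 1.15 to 1.56 for LAMA1 and 0.72 to 0.93 for LAMC1.

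The same difference can be read from the course of each arm. In control cells LAMA4, LAMA3, LAMB1 and LAMC1 fell from 15 to 30 weeks, with log2 fold changes of -3.14, -1.66, -1.34 and -0.89 (4 of 9 genes, edgeR, adjusted p of at most 0.000215, where 50.3% of all genes differed). In exposed cells LAMA4 and LAMB1 fell, with -1.76 and -0.71, while LAMA1 rose by 1.08 (3 of 9 genes, edgeR, adjusted p of at most 0.00176, where 46% of all genes differed). LAMA3 and LAMC1, which fell in the controls, were at -0.20 (adjusted p = 0.46) and -0.059 (adjusted p = 0.773, edgeR) in exposed cells. The count in exposed cells was 5 without exposed replicate 2 of 30 weeks. These steps between time points include the change of batch.

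**Figure D3:**
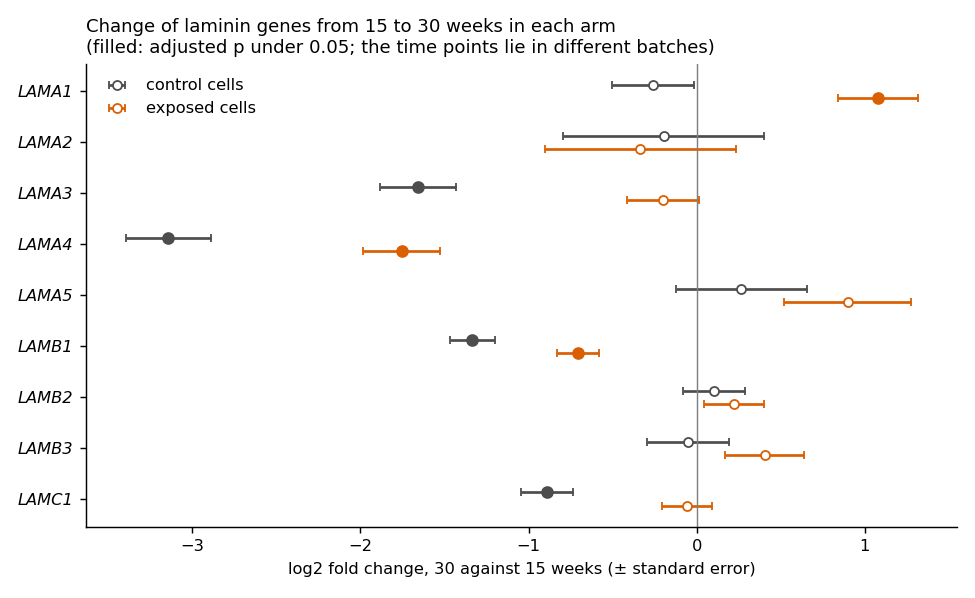
Log2 fold change from 15 to 30 weeks for each laminin gene in control (grey) and exposed (orange) cells; bars are 1 SE and filled symbols have an adjusted p under 0.05. LAMA3 and LAMC1 are filled and below 0 in the controls, at -1.66 and -0.89, and lie near 0 in exposed cells.

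Within batch 1, passaging from 24 h to 15 weeks went with lower levels of LAMA4, LAMA5 and the laminin-332 genes LAMA3 and LAMB3. In controls LAMA4 fell by 2.90 on the log2 scale (SE 0.222, adjusted p = 1.29e-07), LAMB3 by 1.35 (SE 0.267, adjusted p = 0.0015), LAMA5 by 1.29 (SE 0.418, adjusted p = 0.0326) and LAMA3 by 0.80 (SE 0.249, adjusted p = 0.0271, edgeR). The value of LAMA5 rested on control replicate 1 of 24 h, without which it was -0.65 (adjusted p = 0.405, edgeR), and over the alternatives it ran from -1.74 to -0.65. These were 4 of 9 genes, where 24.9% of all genes differed, and the count was 2 without control replicate 1 of 24 h or without either control of 15 weeks. In exposed cells the same 4 genes fell, with log2 fold changes of -3.75, -2.08, -1.52 and -1.07, LAMB1 fell by 0.43 and LAMB2 rose by 0.66 (6 of 9 genes, edgeR, adjusted p of at most 0.0429, where 26% of all genes differed). The count in exposed cells was 2 or 3 without exposed replicate 2 of 24 h or either exposed sample of 15 weeks. LAMB2 was the only gene of the 9 called higher at 15 weeks than at 24 h in either arm.

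To compare the chains with each other, CPM were divided by the exon length of each gene in kilobases, from 4448 bases for LAMB3 to 11426 bases for LAMA5. LAMA3 was divided by 10847 bases, although it also has shorter transcripts from an internal start. Which of its transcripts were present was not measured. A shorter length would raise LAMA3 in the order, shares, ratios and trimers below. With the lengths used LAMC1 had the highest level in every group, at 85.2 CPM per kilobase in the 24 h controls and 39.9 in the 30-week controls. At 24 h the order of the controls was LAMC1, LAMB1, LAMB2, LAMB3, LAMA3, LAMA4, LAMA1, LAMA5 and LAMA2, with no overlap between neighbours over the 2 samples. The lower end of this order changed with time, since LAMA4 had dropped to the level of LAMA2 at 30 weeks and overlapped it in both arms. At 30 weeks LAMB2 stood above LAMB1, without overlap in controls and with overlap in exposed cells. Neighbours that also overlapped at 30 weeks were LAMA1 and LAMA5 in controls, and LAMB3 and LAMA3 in exposed cells.

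Among the β chain transcripts the share of β1 was lower and that of β2 higher at the later times. LAMB1 made up 60.3% ± 0.277 (SD, n = 2) of the summed β chain level per kilobase in the 24 h controls, 53.4% ± 1.44 (SD, n = 2) at 15 weeks and 30.3% ± 2.23 (SD, n = 3) at 30 weeks. In exposed cells it made up 60.5%, 54.3% and 38.3% ± 4.38 (SD, n = 4). LAMB2 went from 22.7% to 38.7% and 58.8% in controls and from 21.1% to 40.4% and 53.5% in exposed cells. The LAMB1 shares of the 2 arms did not overlap at 30 weeks, at 28.1% to 32.6% in controls and 34.3% to 43.3% in exposed cells, while the LAMB2 shares did. Both chains were near equal in exposed replicate 2 of 30 weeks, at 43.3% for LAMB1 and 43.9% for LAMB2. These shares are descriptions without a test, and they sum to 100% within a sample, so that a higher share of 1 chain lowers the others.

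**Figure D4:**
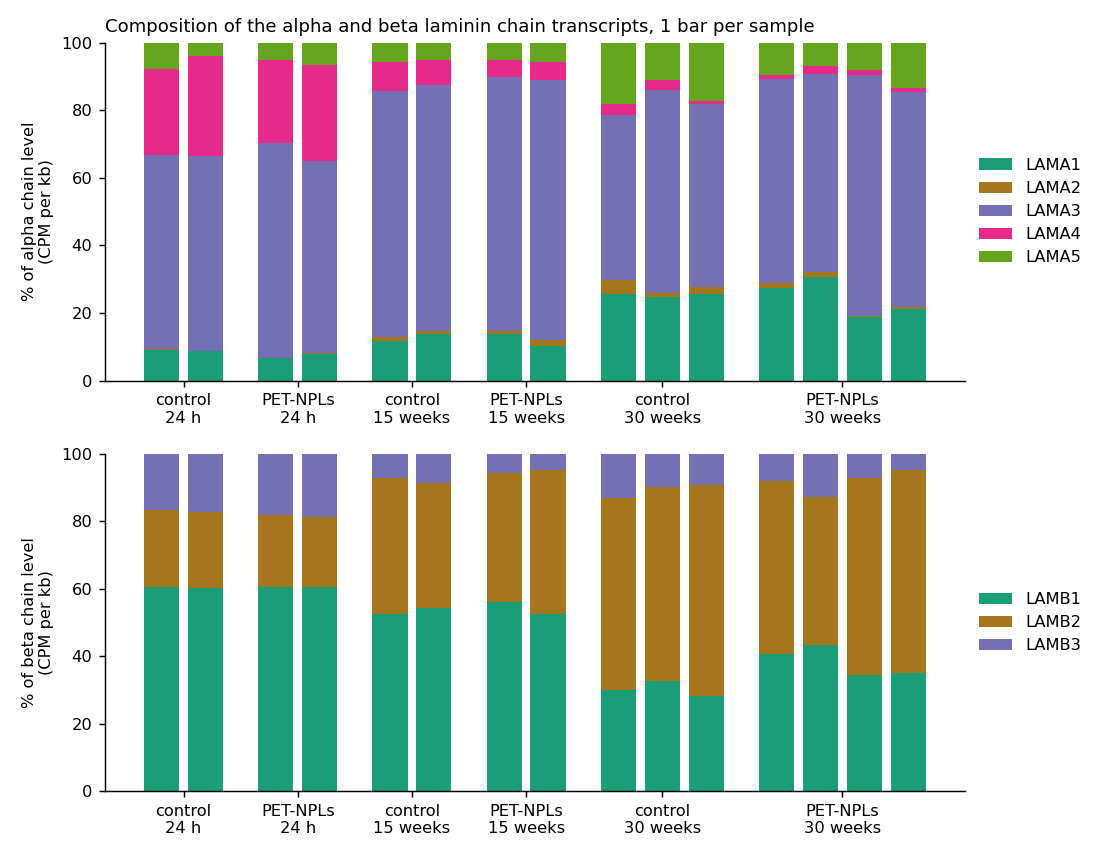
Share of each chain gene in the summed α chain level (top) and β chain level (bottom), in percent of CPM per kilobase of exon, with 1 bar per sample. LAMA4 shrinks from 27.5% of the α chains in the 24 h controls to 8.07% at 15 weeks and 2.37% at 30 weeks, and LAMB2 grows from 22.7% to 58.8% of the β chains.

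Among the α chains LAMA3 had the highest level per kilobase in every group, with 57.6% of the summed α chain level in the 24 h controls, 72.7% at 15 weeks and 54.3% ± 5.48 (SD, n = 3) at 30 weeks, against 63.5% ± 5.64 (SD, n = 4) in exposed cells at 30 weeks. LAMA1 came to 8.77%, 12.7% and 25.3% in controls and to 24.5% in exposed cells at 30 weeks. The arms overlapped in both shares at 30 weeks, although LAMA1 and LAMA3 were each higher in exposed cells. The summed α chain level was 2.77 ± 0.777 CPM per kilobase (SD, n = 3) in the 30-week controls and 6.26 ± 1.06 (SD, n = 4) in exposed cells, the latter close to the 6.62 ± 0.131 (SD, n = 2) of the 15-week controls. The β chains exceeded the α chains 15.6-fold ± 4.40 (SD, n = 3) in the 30-week controls and 8.37-fold ± 0.554 (SD, n = 4) in exposed cells, without overlap between the arms. Control replicate 1 was at 20.7, the other controls at 12.9 and 13.2, and the exposed samples at 7.83 to 9.08. At 24 h the ratio was 4.79 in controls. LAMC1 relative to the sum of LAMB1 and LAMB2 was 1.09 ± 0.150 (SD, n = 3) in the 30-week controls and 1.48 ± 0.128 (SD, n = 4) in exposed cells, also without overlap, and 1.48 in the 24 h controls.

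Seen by trimer, the α chain had the lowest level per kilobase in each of the 10 trimers of γ1 considered (laminin-111, laminin-121, laminin-211, laminin-221, laminin-311, laminin-321, laminin-411, laminin-421, laminin-511 and laminin-521) and in all 6 groups. All 3 chains of laminin-111 and of laminin-311 were among the genes called higher in exposed cells at 30 weeks. For laminin-311 and laminin-321 the level of the scarcest chain, LAMA3, was 0.959 to 1.90 CPM per kilobase in the 30-week controls and 2.86 to 4.47 in exposed cells. For laminin-111 and laminin-121 it was that of LAMA1, at 0.500 to 0.902 in controls and 1.13 to 2.02 in exposed cells. For laminin-411 and laminin-421 it was that of LAMA4, which went from 3.90 to 4.08 CPM per kilobase in the 24 h controls to 0.0347 to 0.0832 in the 30-week controls. These are transcript levels for the exon lengths used, and the place of LAMA3 was not tested with the length of its shorter transcripts. Neither chain proteins nor assembled trimers were measured.

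The laminin receptors did not differ in 1 direction between the 30-week arms. Of 10 receptor genes 5 differed at 30 weeks, 1 higher and 4 lower, where 23.7% of all genes differed and 12% were higher, and the median log2 fold change of the 10 was -0.13 (0.0078 over all genes). ITGA2, the α2 integrin subunit that binds collagen and laminin, averaged 3.53 ± 0.510 CPM among controls (SD, n = 3) and was higher with exposure, at 9.20 ± 2.73 CPM (SD, n = 4), with a log2 fold change of 1.38 (SE 0.201, adjusted p = 0.000111, edgeR). At 15 weeks it had been at 27.1 and 32.1 CPM on average. ITGB4, whose β4 subunit binds laminin-332 in the hemidesmosome, averaged 61.4 ± 26.8 CPM among controls (SD, n = 3) and was lower with exposure, at 12.3 ± 5.63 CPM (SD, n = 4), with a log2 fold change of -2.32 (SE 0.332, adjusted p = 9.3e-05, edgeR), after 5.07 and 4.74 CPM at 15 weeks. ITGA7, a laminin receptor subunit typical of muscle, averaged 126 ± 23.7 CPM among controls (SD, n = 3) and was lower with exposure, at 30.6 ± 2.33 CPM (SD, n = 4), with a log2 fold change of -2.04 (SE 0.133, adjusted p = 1.84e-08, edgeR), after 17.3 and 16.5 CPM at 15 weeks. The means of ITGB4 and ITGA7 in both arms were thus above those of 15 weeks, and that of the controls more so. At 24 h ITGB4 had averaged 48.3 CPM in controls and 51.8 CPM in exposed cells, and ITGA7 7.28 and 9.03 CPM. ITGA6, the partner of β4, had a log2 fold change of -0.66 (SE 0.173, adjusted p = 0.0113, edgeR) with overlapping arms. The syndecan SDC1 was lower in exposed cells, with a log2 fold change of -0.59. ITGA3 (log2 fold change -0.11) and the shared β1 subunit ITGB1 (0.50, adjusted p = 0.0525, edgeR) did not pass, nor did dystroglycan, DAG1 (0.49, adjusted p = 0.078, edgeR). Without control replicate 1 SDC1 was no longer called, and without exposed replicate 2 DAG1 was called as well.

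Of 14 genes for the other parts of the basement membrane 9 differed at 30 weeks, 6 higher and 3 lower in exposed cells, against 23.7% and, for higher, 12% of all genes, with a median log2 fold change of 0.096. The largest differences were those of the paired type IV collagen genes COL4A6, which averaged 0.695 ± 0.294 CPM among controls (SD, n = 3) and 8.97 ± 1.34 CPM with exposure (SD, n = 4), with a log2 fold change of 3.66 (SE 0.227, adjusted p = 1.19e-08), and COL4A5, at 6.27 ± 1.28 (SD, n = 3) and 63.9 ± 2.23 CPM (SD, n = 4), with 3.35 (SE 0.141, adjusted p = 2.59e-10, edgeR). These lie head to head on the X chromosome and encode the α6 and α5 chains of type IV collagen. COL18A1, the precursor of endostatin, was higher in exposed cells by 0.84 on the log2 scale (adjusted p = 0.000481, edgeR), as were, by less, COL4A1, COL4A2 and NID1, the nidogen that links laminin γ1 to collagen IV. COL15A1 was lower in exposed cells, at -2.51, as were COL4A4, at -1.19, and the perlecan gene HSPG2, at -0.95. The calls of NID1, COL4A2 and HSPG2 were lost without control replicate 1, which left 6, and SPARC was gained without exposed replicate 2.

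**Figure D5:**
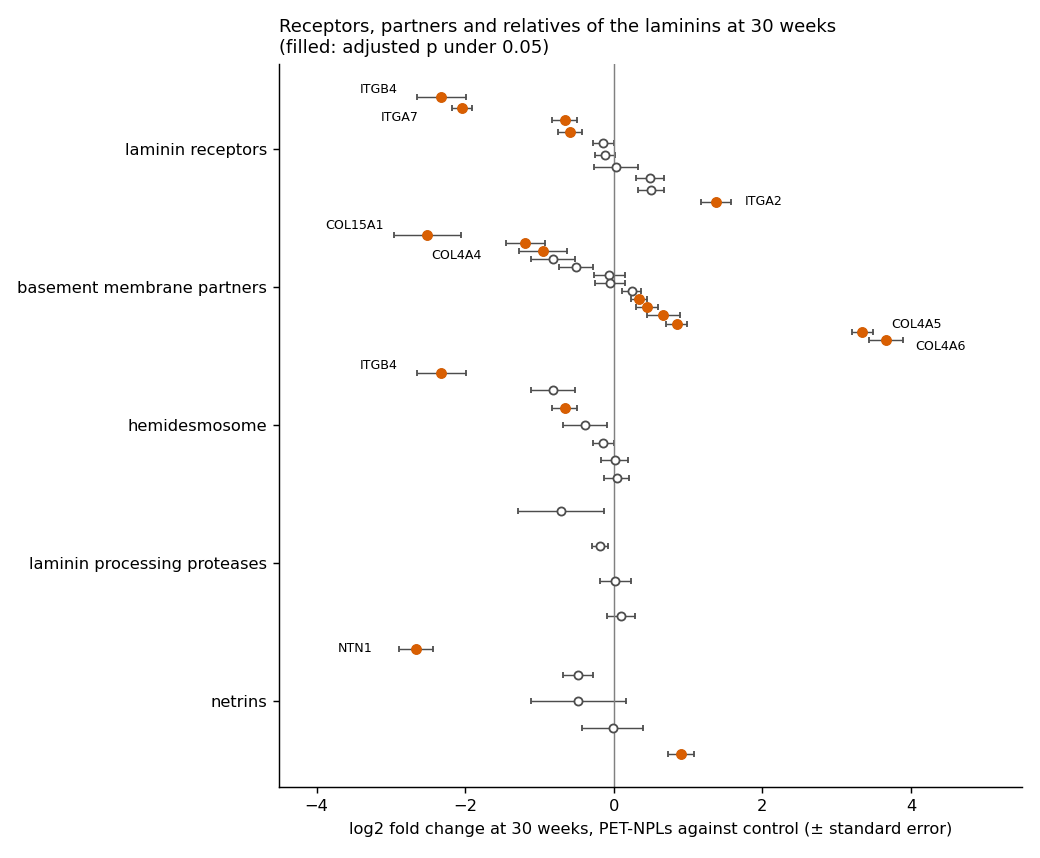
Log2 fold change at 30 weeks, exposed against control cells, for the genes of 5 lists of laminin receptors, partners and relatives; bars are 1 SE, filled points have an adjusted p under 0.05, and called genes past a log2 change of 1 are named. TLL1, with 0 counts in every control, is not drawn, and ITGB4, ITGA6 and CD151 belong to both the receptor and the hemidesmosome lists.

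The hemidesmosome genes other than ITGB4 and ITGA6 did not pass the test, so 2 of 7 were called, both lower, which is 28.6% and near the 23.7% of all genes, and the median of the 7 was -0.38. COL17A1, its transmembrane collagen, was at 0.845 CPM in controls and 0.654 CPM in exposed cells on average, and the anchoring fibril collagen COL7A1 at 15.5 and 15.9 CPM. None of 5 proteases that cut laminin chains was called (edgeR, with 1 under an unadjusted p of 0.05 and a median of 0.017); MMP14, the most abundant, was at 80.9 ± 7.86 (SD, n = 3) and 70.9 ± 2.31 CPM (SD, n = 4), and BMP1 at 39.4 and 42.2 CPM. TLL1 had 0 counts in each control and 0 to 78 counts in the exposed samples.

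The netrins share the end domain of the laminin chains, and 5 of 6 were tested, with a median log2 fold change of -0.48 at 30 weeks and 2 called, against 23.7% of all genes. NTN4, which binds laminin γ1 and disturbs laminin networks, averaged 4.28 ± 1.16 CPM among controls (SD, n = 3) and was higher with exposure, at 8.03 ± 1.10 CPM (SD, n = 4), with a log2 fold change of 0.90 (SE 0.176, adjusted p = 0.0015, edgeR). The guidance factor NTN1 averaged 14.9 ± 3.07 CPM among controls (SD, n = 3) and was lower with exposure, at 2.34 ± 0.832 CPM (SD, n = 4), with a log2 fold change of -2.66 (SE 0.229, adjusted p = 4.07e-07, edgeR). In both genes the 2 arms did not overlap. From 15 to 30 weeks, across the batches, the 5 netrins tested ran from -0.96 to 3.64 in controls and from -0.39 to 1.18 in exposed cells.

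Markers of skeletal muscle also separated the 30-week arms. MYOD1, the master regulator of myogenesis, lay between 65.8 and 105.8 CPM in the 3 controls and between 0.313 and 0.761 CPM in the 4 exposed samples, and the acetylcholine receptor gene CHRNA1 at 47.7 and 0.131 CPM, while titin (TTN), the most abundant of the list in exposed cells, was at 47.9 and 47.1 CPM. Of 10 such markers 6 passed the filter on low counts, MYOG and DES through the 30-week controls, where they are high, so that no count of calls is given. The summed level of the 10 was 175 to 198 CPM in controls and 44.8 to 56.5 CPM in exposed cells. Without TTN it was 122 to 162 CPM in the 30-week controls and 3.51 to 5.07 CPM in the exposed samples. In the samples of 24 h and 15 weeks, which lie in the other batch, it was 4.76 to 10.8 CPM without TTN. The 30-week controls were thus the high samples of the series. LAMA2, the muscle laminin chain, was below 1.1 CPM in both arms. The summed level of 6 smooth muscle markers was 178 to 210 CPM in controls and 286 to 393 CPM in exposed cells, most of it TAGLN, without which the arms overlapped, at 22.1 to 39.0 and 31.4 to 37.0 CPM. That of 10 mesenchymal markers was 2035 to 2554 and 1773 to 2025 CPM, most of it vimentin (VIM), without which the arms overlapped as well, at 564 to 677 and 556 to 619 CPM. Of the 8 mesenchymal markers tested 2 were higher and 2 lower (edgeR), where 23.7% of all genes differed and 12% were higher. The log2 fold changes of the 8 ran from -2.91 for COL1A1 to 3.28 for COL1A2. The summed level of 6 endothelial markers was 0.602 to 1.01 CPM in controls and 2.25 to 3.11 CPM in exposed cells, without overlap. VWF, the most abundant in each exposed sample, was at 0.479 and 1.61 CPM on average, and CDH5, the cadherin that defines endothelium, had 0 counts in each control and 3 to 21 counts in the exposed samples. The part of these differences, and of the share of small noncoding RNAs, in the laminin result was not tested, apart from a fit without the 6 small noncoding RNAs, in which the same 4 laminin genes were called.

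The genes whose log2 CPM followed the 4 called laminins most closely over the 15 samples were sought among the genes that averaged 1 CPM or more. LAMC1 had LAMA3 itself as its nearest gene (Pearson's r = 0.965), followed by NBPF14 (0.964) and ABCC3 (0.962). LAMA3 was closest to ABCC3 (0.989), ZNF83 (0.977) and TOR1AIP2 (0.974), LAMB1 to MAP3K20, RAB5A and TES (0.986 each), and LAMA1 to FBXO9 (0.919), SEL1L3 (0.919) and TSPAN14 (0.900). Between members r was 0.919 for LAMA3 and LAMB1 and -0.874 for LAMB2 and LAMB3. These values describe 15 libraries that share 6 conditions and 2 batches.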

How the data were processed

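RNA libraries of BEAS-2B cells (TruSeq Stranded Total RNA with Ribo-Zero) were processed by the authors, who used Rfastp to filter reads and Rsubread to map and count them on GRCh38; the submitters' processing notes name bcl2fastq and featureCounts. The values used are the raw counts as the authors deposited them, without normalization, for 28395 Entrez genes and 15 samples. The strand setting and the treatment of multi-mapping reads are not given in the sources used here, so reads of antisense partners cannot be told apart; genes in the table that overlap a laminin gene held at most 7 counts.

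The analysis used R 4.3.3 and edgeR 4.0.16. Genes were filtered with filterByExpr (16740 kept), scaled by TMM and fitted by quasi-likelihood, to all 15 samples with 6 condition means; this fit replaces the limma-voom model with surrogate variables of the study's methods, which was run as an alternative (limma 3.58.1, sva 3.50.0). Benjamini-Hochberg adjustment covered all tested genes, and 0.05 was the threshold. Standard errors come from the fit, as the log2 fold change over the root of its F statistic, and a prior count of 2 entered log2 CPM. Levels per kilobase used the union of exons of the protein-coding GENCODE transcripts. A gene at 1 CPM had 23 to 34 counts. The procedure was checked on simulated data. The members, the lists of partners and markers and the comparisons were chosen with earlier results of these data known. All 9 laminin genes are named, and for each partner list up to 3 called genes with the largest change in each direction or, where none was called, up to 2 with the highest level; further partners and markers were named after their values were seen. Another partner list is not reported here. Alternatives were DESeq2 1.42.0, limma-voom with and without 2 surrogate variables, 2 other scalings, 2 other filters, stricter thresholds, the groups fitted alone, no small noncoding RNAs, the replicate number as a block and each replicate left out.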

Additional observations from a re-analysis of the deposited data

Results flagged for a closer look

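In exposed replicate 2 of 30 weeks LAMA3 stood away from the other 3 exposed samples, at 31.0 CPM against 46.5 to 48.5 CPM (Dixon's ratio 0.889, above the 95% critical value for 4 samples). LAMA4 was the highest in the same sample, at 0.981 CPM against 0.652 to 0.704 CPM, which rests on 28 counts (Dixon's ratio 0.841). Chance gives such a ratio in about 1 of 20 groups. The exposure effect at 30 weeks exceeded that at 15 weeks, by an interaction test in edgeR, by 1.46 on the log2 scale for LAMA3, 1.39 for LAMA4, 1.34 for LAMA1 and 0.83 for LAMC1. The effects at 15 and 30 weeks lie in different batches, and time and batch cannot be told apart. The call of LAMC1 was lost in 16 of 27 alternatives, that of LAMA4 in 12, limma-voom among them, that of LAMA1 in 9 and that of LAMA3 in 4.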

How the results depend on the processing

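The 4 laminin genes called at 30 weeks were called under all alternatives, except that LAMB1 and LAMC1 were lost when a fold change of at least 2 was required, which left 2; leaving out each replicate in turn gave 4 to 5. At 15 weeks the count was 0, 1 with only the groups compared fitted alone, and 0 to 0 with each replicate left out. The count for the difference between 30 and 15 weeks was 4, 1 with the groups fitted alone, 0 at an adjusted p under 0.01 and 0 to 5 with replicates left out. For controls from 24 h to 15 weeks the count of 4 became 7 with surrogate variables, 2 with upper-quartile scaling, 7 with the groups fitted alone, 2 at an adjusted p under 0.01 and 2 to 6 with replicates left out. For exposed cells over the same interval the count of 6 became 8 with surrogate variables, 8 with the groups fitted alone and 3 at an adjusted p under 0.01. With single replicates left out it was lower or unchanged. For exposed cells from 15 to 30 weeks the count of 3 became 5 with surrogate variables and 3 to 5 with replicates left out. For controls it was 4, 3 when a fold change of at least 2 was required, and 4 to 4 with replicates left out. With the longest transcript as the length, LAMB1 made up 32.7% of the β chains in the 30-week controls and 41.0% in exposed cells, and these shares still did not overlap. The causes of these shifts were not tested. At 30 weeks the log2 fold change of LAMB3 ran from -0.29 to 0.062 and that of LAMA2 from -0.62 to 0.097 with replicates left out, both turning to 0.05 without control replicate 1 and to 0.062 (LAMB3) and 0.052 (LAMA2) without exposed replicate 4, and LAMA2 also without exposed replicate 3.

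With the replicate number as a block the 30-week count was 4, that of the difference between 30 and 15 weeks was 2 (LAMA3 and LAMA4), and LAMB3 turned to 0.047 at 30 weeks. The numbers were not shown to pair the samples: deviations of same-numbered samples correlated across genes at -0.12, 0.30 and 0.10 at 30 weeks, -0.06 at 24 h and 0.03 at 15 weeks, and not every sample correlated best with its own number. In depth, the samples of 30 weeks held 7 to 30 counts of LAMA2 and 8 to 28 of LAMA4, and those of 24 h 3 to 13 of LAMA2.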
